A study of Rattus norvegicus with 6 samples.

Results

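SR proteins, heterogeneous nuclear ribonucleoproteins (hnRNPs) and the RNA-binding proteins that work with them were followed in libraries labelled PC12, an established rat line grown from a pheochromocytoma, which is a tumor of chromaffin cells. The genes were taken from the deposited count table as all protein-coding rows whose symbol begins with Srsf, Hnrnp, Rbfox, Ptbp, Celf, Mbnl, Luc7l, Tra2 or Elavl, or with Rbm and a digit. This gave 90 rows, with 87 distinct symbols, of 20609 rows in the table. Hnrnpa3, Hnrnpab and Rbm4b each have a pair of rows. RNA-seq had been made from 3 libraries of cells given a control plasmid and 3 libraries of cells given a plasmid for overexpression of PCBP-1 (PCBP1-OE), which carries the protein with an EGFP tag on a pcDNA3.1 backbone. Both groups are the same line. The paper describes lipofection of the PCBP-1 plasmid, and does not describe a control plasmid. Elsewhere it calls the overexpression stable. The labels do not say whether the 3 samples of a group were separate cultures, so p-values measure only the spread between these samples, which may be technical. The comparison asks whether raising PCBP-1, itself an RNA-binding protein of the hnRNP E group, went along with other levels of the mRNAs for splicing regulators.

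Splicing regulators read short motifs in pre-mRNA and decide which exons the spliceosome joins. SR proteins carry domains rich in arginine and serine, bind exons and mostly favor their inclusion, while hnRNPs coat nascent RNA and often repress exons. Rbfox, Ptbp, Celf, Mbnl and Elavl proteins add tissue-specific programs, above all in neurons and muscle, and Luc7-like proteins sit with the U1 particle at the donor splice site. Many of these genes regulate their own mRNA through exons that send it to decay. A gene count sums all isoforms, and isoforms were not analysed here.

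The libraries held 19730209 to 22315623 counts on genes. Reads of mitochondrial genes made up 7.99% to 8.42% of control counts and 7.53% to 8.21% of PCBP1-OE counts. No row of the table was matched to Pcbp1 or Hnrnpk, so the overexpression was not checked here. The labelled cell type was set against marker lists. Of 9 chromaffin markers 8 were in the table, with mixed levels. Some were at or near 0, with 0 to 5 counts a library for Dbh, 0 to 4 for Ddc and 0 to 3 for Chga. Chgb had 0 to 9 and Phox2a 1 to 7. Th had 141 to 185 counts and Scg2 2607 to 3553. Slc18a1 had 18, 17 and 17 counts in the controls and 28, 22 and 21 in PCBP1-OE. Glial markers were present (5 of 5 in the table), with 7160 to 9007 counts of Sox10 and 4143 to 5339 of S100b. Their summed level was 619 to 664 CPM (counts scaled to library size) in controls and 586 to 605 in PCBP1-OE. The summed fibroblast markers (3 of 5 in the table, mostly Pdgfra) were at 223 to 229 CPM in the controls and 199 to 211 in PCBP1-OE, and leukocyte markers (4 of 5) at 6.64 to 7.61 and 5.92 to 6.17. These 3 lists were lower in PCBP1-OE without overlap between the groups. The chromaffin list overlapped (150 to 180 against 138 to 153 CPM), and endothelial (2 of 3) and adrenocortical markers (3 of 3) stayed under 1.1 CPM in sum. No marker of these lists passed the test between groups, and their part in the results on splicing regulators was not tested. In bulk samples, fewer cells of a type and less RNA per cell cannot be told apart.

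Of the 90 splicing regulator rows, 78 had enough counts for a test. Only 6 passed edgeR's quasi-likelihood test at an adjusted p (Benjamini-Hochberg over all 12624 genes tested) of 0.05 or less, and all 6 were higher in PCBP1-OE: Mbnl1, Rbm33, Celf1, Rbm27, Hnrnpll and Hnrnpa3. They are 7.69% of the tested members, beside 4.45% of all genes tested that were called higher. No member was called lower, beside 5.00% of all genes. At an unadjusted p under 0.05 there were 4 lower members, and 13 higher ones. The changes were small, from a rise of 1.68-fold in Mbnl1 to 1.13-fold in Hnrnpa3, and none reached 2-fold.

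**Figure D1:**
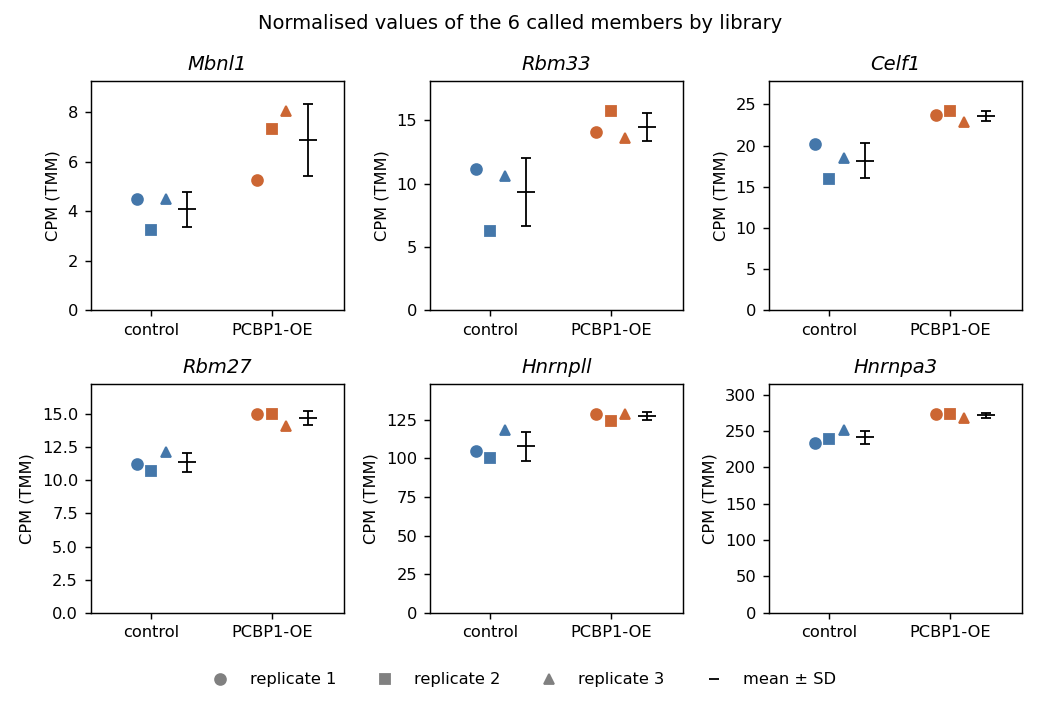
TMM-scaled CPM of the 6 splicing regulators that passed the test, 1 panel a gene, with a point for each of the 3 control and 3 PCBP1-OE libraries and the mean with SD. In each panel the PCBP1-OE points lie above the control points, with the widest relative gap in Mbnl1 (4.08 to 6.88 CPM on average) and the narrowest in Hnrnpa3 (241 to 272 CPM).

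Mbnl1 (ENSRNOG00000014076, chromosome 2) encodes the muscleblind protein that is trapped by CUG repeats in myotonic dystrophy. It had 88, 68 and 101 counts in the controls and 116, 148 and 158 in PCBP1-OE. The lowest PCBP1-OE library thus stood above the highest control, by the smallest margin in PCBP1-OE replicate 1. Scaled to library size by the TMM method, its level rose from 4.08 ± 0.714 to 6.88 ± 1.45 CPM (SD, n = 3 each), and the log2 fold change was 0.75 (SE 0.19, 95% interval 0.34 to 1.16, edgeR adjusted p = 0.0307). Its paralog Mbnl2 had 2219, 2274 and 1987 counts against 2680, 2073 and 2317, with overlapping groups and a log2 fold change of 0.14 (SE 0.08, adjusted p = 0.282). Mbnl3 had 1 count in a single library.

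Celf1 (ENSRNOG00000010379, chromosome 3) encodes a binder of GU-rich elements whose splicing targets overlap with those of Mbnl1, often with the opposite effect. The controls had 395, 333 and 414 counts, and the PCBP1-OE libraries 522, 489 and 449. The 3 PCBP1-OE libraries lay close together, and control replicate 2 was the lowest of all. The level rose from 18.2 ± 2.11 to 23.6 ± 0.652 CPM (SD, n = 3 each), by 0.38 on the log2 scale (SE 0.09, adjusted p = 0.0290). Celf2 was apart in the same direction without passing the test, with 71, 62 and 63 counts against 110, 87 and 73 (log2 fold change 0.48, SE 0.18, adjusted p = 0.104). The other tested Celf genes, named after their values were seen, were below 0. Celf5 had 108, 118 and 142 counts against 112, 101 and 78, lower in every PCBP1-OE library after scaling but short of the threshold (-0.31, SE 0.15, adjusted p = 0.197), and Celf4 was at -0.06 (SE 0.17, adjusted p = 0.841) with overlap.

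Rbm33 (ENSRNOG00000006718, chromosome 4), an RNA-binding protein, had 219, 130 and 237 counts in the controls and 311, 318 and 267 in PCBP1-OE. Control replicate 2 stood well below the other controls, at 6.22 CPM beside 11.2 and 10.6. The mean rose from 9.32 ± 2.69 to 14.5 ± 1.11 CPM (SD, n = 3 each), for a log2 fold change of 0.64 (SE 0.17, adjusted p = 0.0386). Without control replicate 2 the log2 fold change was 0.42. Rbm27 (ENSRNOG00000027250, chromosome 18), a zinc-finger protein and paralog of Rbm26, had 221, 224 and 272 counts against 331, 304 and 276. Its groups were apart after scaling, with a rise of 0.37 (log2 fold change, SE 0.10, adjusted p = 0.0369). Rbm26 itself had overlapping groups and a log2 fold change of 0.02 (SE 0.09, adjusted p = 0.921).

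Both hnRNP genes that passed are well expressed, and their rises were the smallest of the called genes. Hnrnpll (ENSRNOG00000006929, chromosome 6), the paralog of Hnrnpl known for exon skipping in the leukocyte antigen gene Ptprc, had 2060, 2094 and 2653 counts in the controls and 2844, 2507 and 2529 in PCBP1-OE. After scaling the groups did not overlap, at 108 ± 9.31 and 127 ± 2.83 CPM (SD, n = 3 each), and the log2 fold change was 0.24 (SE 0.06, adjusted p = 0.0248). Hnrnpa3 (ENSRNOG00000052968, chromosome 3), a member of the A/B group of repressor hnRNPs, had 4581, 4983 and 5637 counts against 6033, 5533 and 5244. It rose by 0.17 on the log2 scale (SE 0.04, adjusted p = 0.0313). The other row named Hnrnpa3, on chromosome 10 (ENSRNOG00000027006), had 1313, 1333 and 1382 counts against 1402, 1274 and 1337 and a log2 fold change of 0.02 (SE 0.05, adjusted p = 0.846). Both rows share a name, and reads of near-identical copies may have been divided between them, so the values of each are uncertain.

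Which of these calls passed at the adjusted threshold changed with the library left out. The log2 fold changes of all 6 genes stayed above 0 in each of the 6 fits that left out a library, within 0.16 to 0.91, and each kept an unadjusted p under 0.05. The adjusted p did not hold as well. Without control replicate 3 all 6 passed, at adjusted p of 0.000462 to 0.0122. Without control replicate 2 (0.116 to 0.164) or PCBP1-OE replicate 2 (0.0732 to 0.137) none passed. Celf1 alone of the 6 passed without control replicate 1 (adjusted p = 0.0420) and without PCBP1-OE replicate 3 (0.0474), and Mbnl1 alone without PCBP1-OE replicate 1 (0.0438). Celf1 therefore passed in 3 of the 6 fits, Mbnl1 in 2, and Rbm33, Rbm27, Hnrnpll and Hnrnpa3 in 1. The share of all genes tested that passed moved too, from 9.45% with all libraries. It was 1.92%, 0.375% and 22.3% without control replicates 1, 2 and 3. Without PCBP1-OE replicates 1, 2 and 3 it was 1.32%, 1.06% and 5.42%. Without control replicate 3 a further 10 members passed, Hnrnpa2b1, Hnrnpc, Hnrnph2 and Ptbp2 as higher and Hnrnpab, Rbfox1, Rbm12, Rbm14, Srsf6 and Srsf9 as lower, while 22.3% of all genes tested then passed. Without control replicate 1 Rbm25l1 also passed. All 6 passed under each other scaling, filter and test tried on the 6 libraries without a replicate term.

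**Figure D2:**
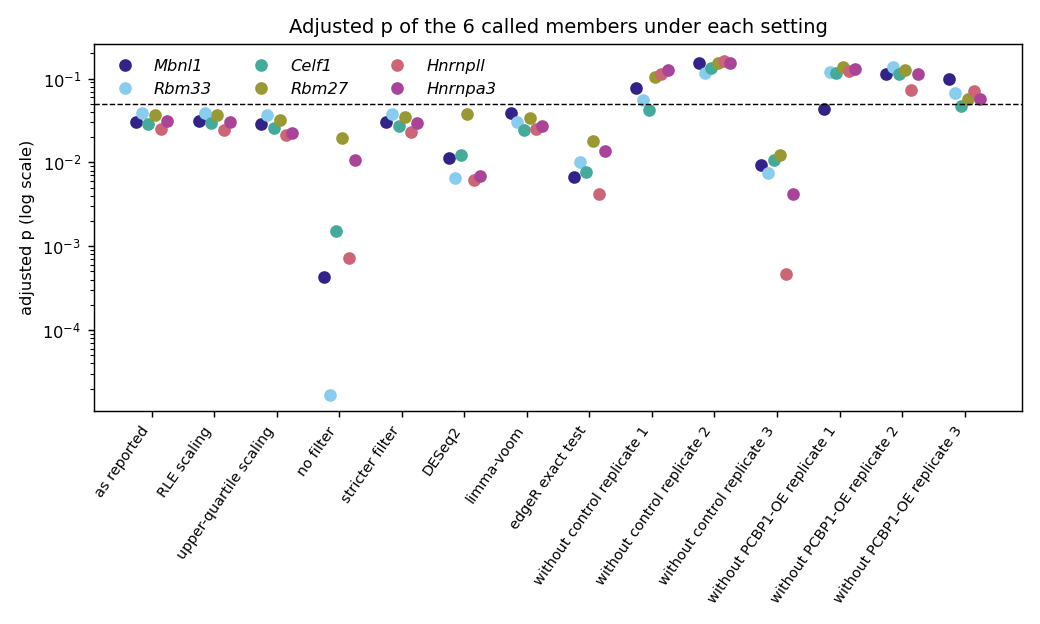
Adjusted p (log axis) of the 6 called splicing regulators as reported, under 7 other scalings, filters and tests, and with each library left out, with a line at 0.05. Points drawn lie under the line with all 6 libraries and spread above it when a library is left out, except without control replicate 3. A fit with a replicate term, also on all 6 libraries, is not drawn. In it all 6 genes lay above the line (edgeR adjusted p 0.107 to 0.145).

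The first bases before the annotated starts of called genes are shown because those of Celf1 differ widely in composition from the others printed. They are 150 bases up to the start, taken from RefSeq on the assembly GRCr8 and written in the direction of transcription, with matches to a GC box (GGGCGG on either strand) or a CCAAT box (CCAAT on either strand) in capitals. They come from Mbnl1 (chr2:146819884-146820033, plus strand), Rbm33 (chr4:7820684-7820833, minus strand), Celf1 (chr3:97434986-97435135, plus strand) and Hnrnpa3 (chr3:80985784-80985933, plus strand).
Mbnl1: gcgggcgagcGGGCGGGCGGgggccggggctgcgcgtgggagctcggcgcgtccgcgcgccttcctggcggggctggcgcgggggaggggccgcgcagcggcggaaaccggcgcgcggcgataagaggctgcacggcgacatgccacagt
Rbm33: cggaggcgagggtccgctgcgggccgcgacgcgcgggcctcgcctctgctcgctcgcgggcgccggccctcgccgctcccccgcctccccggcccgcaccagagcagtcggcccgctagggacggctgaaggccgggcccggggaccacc
Celf1: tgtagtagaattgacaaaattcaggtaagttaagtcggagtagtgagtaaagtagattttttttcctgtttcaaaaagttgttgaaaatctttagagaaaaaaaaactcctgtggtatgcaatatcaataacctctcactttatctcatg
Hnrnpa3: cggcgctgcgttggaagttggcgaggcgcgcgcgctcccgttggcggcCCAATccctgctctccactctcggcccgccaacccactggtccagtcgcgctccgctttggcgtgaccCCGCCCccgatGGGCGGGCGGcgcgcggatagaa
The Mbnl1, Rbm33 and Hnrnpa3 stretches are GC-rich (81.3%, 82.7% and 73.3%) and hold 28, 25 and 23 CpG dinucleotides, while the Celf1 stretch is at 30.7% GC with 1 CpG. For each symbol 1 annotated start was kept, and any other starts of a gene were not read. The table has no promoter for Hnrnpll, and that of Rbm27 is not printed. In windows of 250 bases before to 50 after the start, a GC box stood in 62.7% of 67 tested members with a window and in 63.2% of the 8823 tested genes with one. CCAAT stood in 56.7% of members and 38.3% of all, and TGACG, the core of the cyclic AMP response element, in 53.7% and 32.6%. TATAAA was in 10.4% and 6.59%, and GAAANNGAA, as in interferon response elements, in 11.9% and 7.07%, each read on both strands. Of the 5 called members with a window, 4 had a GC box, 2 CCAAT and 2 TGACG. A match is a description of letters in a window, and binding was not measured.

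No SR protein gene passed the test. Of 11 Srsf genes 10 were tested and 0 were called (4.45% of all genes were called higher and 5.00% lower), with 5 estimates above and 5 below 0 and a median log2 fold change of 0.00068. At an unadjusted p under 0.05 there were 2, Srsf9 and Srsf6, both lower. Srsf1, the classic exon activator, had a log2 fold change of 0.09 (SE 0.06, adjusted p = 0.295), and Srsf3, a short member of the family, one of 0.04 (SE 0.05, adjusted p = 0.640). Srsf2, which binds exonic enhancers, was at -0.07 (SE 0.06, adjusted p = 0.478). Srsf5 and Srsf7 were within 0.02 of 0, and their sign turned positive under upper-quartile scaling.

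The lowest SR proteins, named after their values were seen, were Srsf9 and Srsf6. Srsf9 had 1587, 1515 and 1546 counts in the controls and 1395, 1325 and 1345 in PCBP1-OE. The scaled groups were just apart, with the lowest control at 68.9 and the highest PCBP1-OE library at 68.6 CPM, a log2 fold change of -0.17 (SE 0.06, adjusted p = 0.0894). Srsf6 had 3563, 3544 and 3682 counts against 3510, 3071 and 3110 (log2 fold change -0.13, SE 0.05, adjusted p = 0.0942). Neither passed the threshold with all libraries, and both did when control replicate 3 was left out, as did Srsf9 with no filter on low counts. Srsf12 had 0 counts in the controls and 1, 0 and 1 in PCBP1-OE. A count of 0 allows a level of up to 0.134 to 0.152 CPM in these libraries, which covers counting error only.

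Tra2b, an SR-like activator of exons with GAA repeats, was the nearest to the threshold of the uncalled members. It had 5245, 5656 and 5874 counts against 6620, 5730 and 5750, or 267, 271 and 262 CPM against 300.2, 284 and 293. All PCBP1-OE libraries stood above all controls, and the log2 fold change was 0.13 (SE 0.04, adjusted p = 0.0636). It passed with DESeq2 and with upper-quartile scaling. Tra2a had overlapping groups and a log2 fold change of 0.08 (SE 0.06, adjusted p = 0.436).

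In the hnRNP family, 19 of 20 rows were tested, 2 were called higher and 0 lower, beside 4.45% and 5.00% of all genes tested. Of the 19 estimates 15 were above 0, beside 50.5% of all genes, with a median log2 fold change of 0.06. Hnrnpa1, which represses exons through silencer motifs, stayed close to its control level, at 735 ± 33.8 CPM in the controls and 732 ± 26.6 with PCBP1-OE (SD, n = 3 each), with a 95% interval of the log2 fold change from -0.11 to 0.10. Hnrnpa2b1, its close relative, had scaled groups apart and a log2 fold change of 0.12 (SE 0.04, adjusted p = 0.101). Hnrnpc, which covers uridine tracts, was at 0.12 (SE 0.06, adjusted p = 0.213), or at 0.19 and past the threshold without control replicate 3, and Hnrnpu, a chromatin-bound RNA binder, at 0.04 (SE 0.04, adjusted p = 0.553). Hnrnpl was lower in all PCBP1-OE libraries than in all controls, by a log2 fold change of -0.06 (SE 0.04, adjusted p = 0.322), opposite in sign to its paralog Hnrnpll. Hnrnph1, a binder of G runs named after its values were seen, had a log2 fold change of 0.21 with overlapping groups (SE 0.07, adjusted p = 0.0866), and PCBP1-OE replicate 1 was its highest library at 8417 counts beside 6058 and 6524. It passed with DESeq2 and with no filter.

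The polypyrimidine tract proteins Ptbp1 and Ptbp2 are regulators of neuronal exons, with Ptbp2 the form of neurons. Ptbp1 had overlapping groups, at 9145, 9514 and 10516 counts against 10151, 9642 and 8985, with a log2 fold change of 0.01 and a 95% interval of -0.08 to 0.10. Ptbp2 had 199, 188 and 251 counts in the controls and 333, 248 and 230 in PCBP1-OE. After scaling its groups were apart, with the highest control at 11.2 and the lowest PCBP1-OE library at 11.7 CPM, but it did not pass (log2 fold change 0.37, SE 0.13, adjusted p = 0.0800) except with no filter or without control replicate 3. Ptbp3 was at 0.18 (SE 0.16, adjusted p = 0.490).

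Ratios of paralogs within a library need no scaling, and were computed for 6 pairs chosen after the values were seen. Each numerator was a gene already called higher or higher without overlap. The ratios therefore restate those values and give no separate support. There were 16.8, 16.1 and 19.3 counts of Hnrnpll for each 100 of Hnrnpl in controls, and 21.3, 21.1 and 22.2 in PCBP1-OE, with no overlap. Counts of Ptbp2 per 100 of Ptbp1 were 2.18, 1.98 and 2.39 against 3.28, 2.57 and 2.56, also with no overlap. The groups overlapped for Mbnl1 to Mbnl2, with 3.97, 2.99 and 5.08 counts per 100 in controls and 4.33, 7.14 and 6.82 in PCBP1-OE. They also overlapped for Rbm27 to Rbm26, Celf1 to Celf2 and Elavl2 to Elavl1.

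The neuronal regulators divide into some that were present and some near 0. Rbfox1, which binds GCAUG and shapes neuronal and muscle exons, had 1902, 2016 and 1889 counts against 1917, 1736 and 1682, with overlapping scaled levels and a log2 fold change of -0.10 (SE 0.06, adjusted p = 0.256). Without control replicate 3 it was at -0.17 and passed as lower (adjusted p = 0.0163). Rbfox2 was at 0.14 (SE 0.09, adjusted p = 0.316). Rbfox3, the neuronal marker NeuN, had 1 to 6 counts a library. Of the Hu proteins, which bind AU-rich RNA, the widely expressed Elavl1 had 2408, 2714 and 2484 counts against 2778, 2371 and 2534 (log2 fold change 0.04, SE 0.06, adjusted p = 0.727). The neuronal Elavl2 had 74, 98 and 110 against 109, 118 and 113, apart after scaling but short of the threshold (0.30, SE 0.16, adjusted p = 0.226). Elavl3 had 6 to 14 counts a library, Elavl4 2 to 3 and Celf3 2 to 6, and none of these was tested.

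Luc7l, Luc7l2 and Luc7l3 did not pass the test, and the groups overlapped for each. Their log2 fold changes were 0.13 (SE 0.07, adjusted p = 0.235), 0.01 (SE 0.05, adjusted p = 0.892) and 0.06 (SE 0.06, adjusted p = 0.548). Luc7l2 had 3595, 4054 and 3817 counts in the controls and 4263, 3601 and 3547 in PCBP1-OE, and its 95% interval ran from -0.10 to 0.13.

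Of 35 Rbm rows 31 were tested, with 2 called higher and 0 lower, 19 estimates above 0 and a median log2 fold change of 0.04, beside 4.45% of all genes called higher, 5.00% lower and 50.5% above 0. Rbm3, the cold-induced RNA binder, had 6449, 7240 and 6181 counts against 7098, 5197 and 6188. The groups overlapped widely, and the log2 fold change was -0.09 (SE 0.09, adjusted p = 0.556). Rbm5 and Rbm10, relatives that regulate exons of apoptosis genes, were at -0.02 (SE 0.05, adjusted p = 0.785) and -0.03 (SE 0.05, adjusted p = 0.685). The lowest estimate of all tested members was that of Rbm12, named after its values were seen, at -0.34 (SE 0.13, adjusted p = 0.117). Its controls had 382, 418 and 300 counts and its PCBP1-OE libraries 314, 278 and 268, and after scaling control replicate 3 was the lowest library of all. It passed as lower with no filter and without control replicate 3. Rbm14 was at -0.17 (SE 0.07, adjusted p = 0.127), also with overlap, and passed as lower without control replicate 3. Rbm39, a partner of the early spliceosome, had 6, 2 and 7 counts against 0, 2 and 1 and was not tested, and Rbm24 had 6 in each control against 3, 1 and 5.

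**Figure D3:**
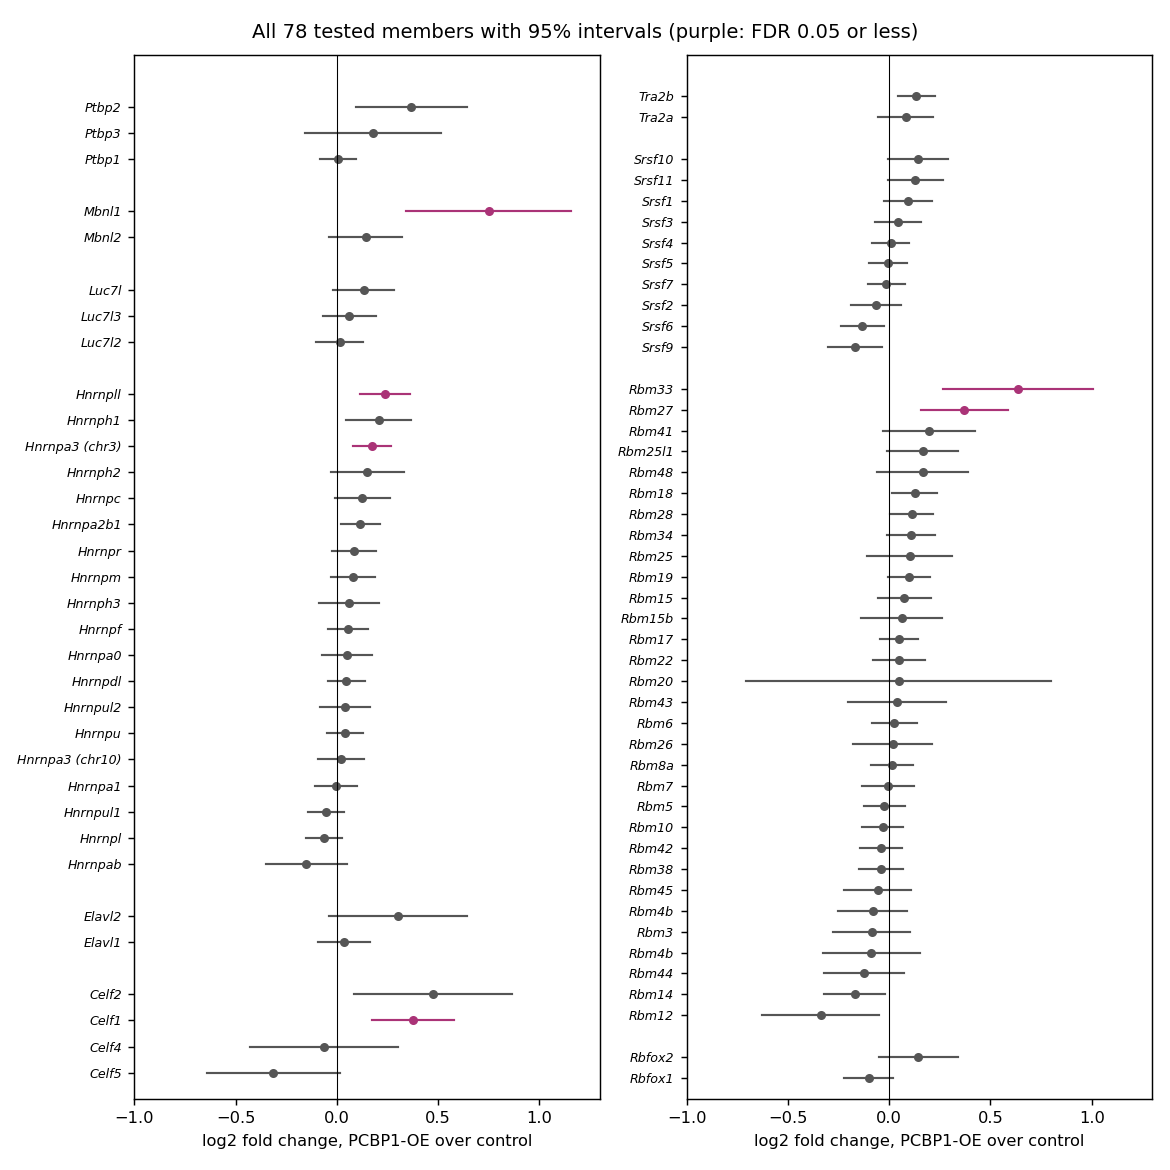
Log2 fold change (PCBP1-OE over control) of the 78 tested splicing regulators with 95% intervals, grouped by family, called genes marked. Most intervals cross 0, and the 6 called genes lie between 0.17 and 0.75.

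The remaining untested members had few counts. Celf6 had 0 in every control and 3, 5 and 2 in PCBP1-OE. Rbm11 had 8, 10 and 8 against 9, 6 and 5. The row of Hnrnpab on ENSRNOG00000046272 had 4 counts in a single control and 0 elsewhere, and Rbm47 1 count in a single PCBP1-OE library.

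Over all tested members, 54 estimates were above 0 and 24 below, 69.2% above beside 50.5% of all genes tested. The median log2 fold change was 0.05, beside 0.0029 for all genes. After scaling, 17 members (21.8%) were higher in every PCBP1-OE library than in every control, beside 14.1% of all genes tested, and 5 (6.41%) were lower, beside 16.5%. Unadjusted p under 0.05 was found for 21.8% of members and for 28.4% of all genes. The 95% interval lay within 2-fold in both directions for 76 of 78 members, all but Mbnl1 and Rbm33. It lay within 0.25 of 0 on the log2 scale for 43.

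**Figure D4:**
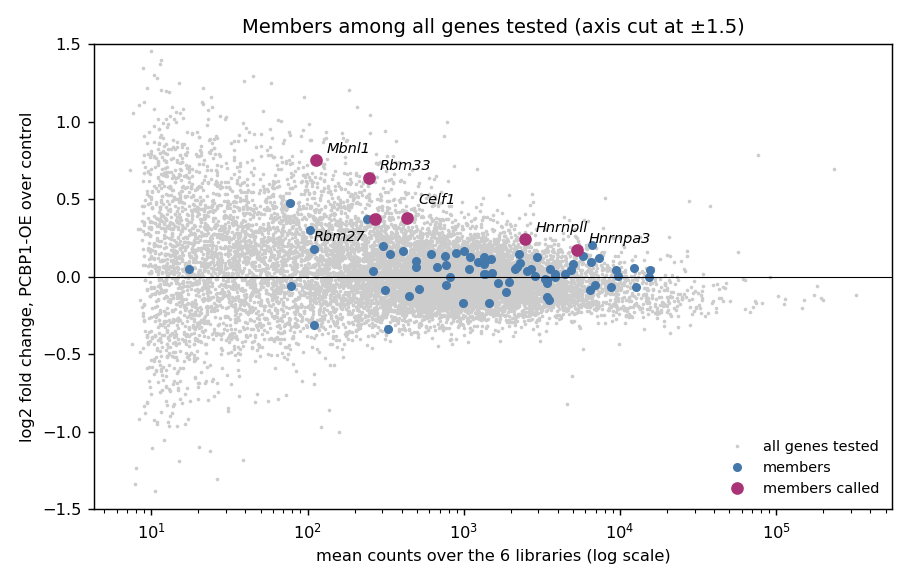
Log2 fold change against mean count (log axis) for the genes tested (grey) and the 78 tested splicing regulators (blue), with called members in purple. The vertical axis is cut, so the most extreme of the 12624 genes are not drawn. The members sit in a narrow band from -0.34 to 0.75, inside the range of all genes tested, from -3.77 to 4.91.

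Most of the calls were of members with few counts. Of 20 tested members with a mean under 500 counts, a limit set after the values were seen, 4 were called higher and the median log2 fold change was 0.15. All 6120 tested genes under that limit had a median of 0.07, with 3.66% called higher. Of 58 members at or above it 2 were called higher and 0 lower with a median of 0.04, beside a median of -0.03 over 6504 genes, of which 338 (5.20%) were called higher and 592 lower.

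Summed over its members, the Hnrnp family took 5137 ± 15.2 CPM in the controls and 5288 ± 96.8 with PCBP1-OE (SD, n = 3 each), 1.03 times the control level and without overlap. The Tra2 pair took 329 ± 9.48 and 358 ± 11.8 CPM, and the Celf family 31.1 ± 2.25 and 36.7 ± 1.35, both without overlap. These rises lay mostly in single members, Tra2b (267 to 292 CPM) and Celf1 (18.2 to 23.6 CPM). Tra2a overlapped between the groups. Celf2 was higher, and Celf4 and Celf5 had estimates below 0. Srsf genes took 2068 ± 86.3 and 2072 ± 74.8 CPM. The Srsf, Luc7l, Ptbp, Rbfox, Rbm, Elavl and Mbnl sums overlapped between the groups, as did the sum over all 90 rows (10763 ± 164 and 10989 ± 231 CPM). Scaled by raw totals instead, the sums of Hnrnp, Tra2 and Celf were again apart, and those of Rbm and of all rows became so.

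**Figure D5:**
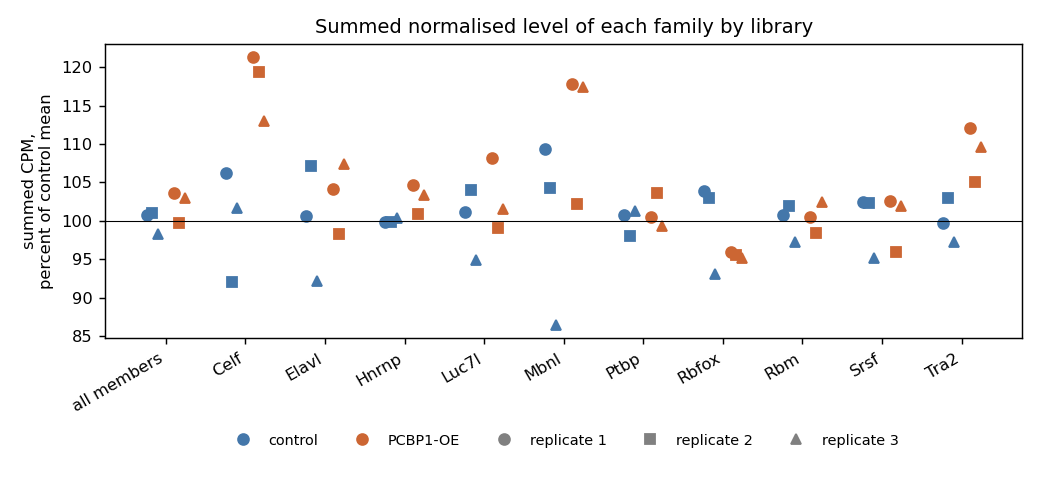
Summed TMM-scaled CPM of each family as a percent of its control mean, 1 point a library, with control and PCBP1-OE libraries side by side. The PCBP1-OE points lie above all control points in Celf, Hnrnp and Tra2 and mix with them in the other families. The rises of the Celf and Tra2 sums lay mostly in Celf1 and Tra2b.

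Other splicing genes outside these families were read from the same fit. Of 50 listed, 47 were in the table and 43 were tested, of which 7 were called higher and 1 lower (4.45% and 5.00% of all genes tested), with a median log2 fold change of 0.08. The kinases that phosphorylate SR proteins and splicing factors held 4 of these 8 calls, with 8 tested. Dyrk1a had 1013, 1122 and 1282 counts against 1383, 1320 and 1287, a log2 fold change of 0.25 (SE 0.05, adjusted p = 0.0169). Prpf4b, the kinase of the assembling spliceosome, had 999, 1068 and 1301 against 1540, 1272 and 1197 (0.28, SE 0.07, adjusted p = 0.0255). Clk2 fell by 0.16 on the log2 scale (SE 0.05, adjusted p = 0.0421), with 2573, 2770 and 2914 counts against 2479, 2357 and 2405, but under upper-quartile scaling it did not pass. Clk1, named after its values were seen, rose by 0.15 (SE 0.04, adjusted p = 0.0376).

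Among 14 tested SR-related proteins and cofactors of the exon junction complex, 3 were called higher and 0 lower. Of all genes tested, 4.45% were called higher and 5.00% lower. Pnn, a partner of the exon junction complex, had 1717, 1816 and 2151 counts in the controls and 2525, 2272 and 2095 in PCBP1-OE. Its level went from 90.1 ± 4.98 to 111 ± 3.94 CPM (SD, n = 3 each), for a log2 fold change of 0.30 (SE 0.05, adjusted p = 0.00835). Srek1, an SR-related protein, had 549, 588 and 599 counts against 750, 677 and 615 (0.26, SE 0.07, adjusted p = 0.0342). Son, a scaffold of nuclear speckles named after its values were seen, rose by 0.18 (SE 0.04, adjusted p = 0.0261). Among 21 other hnRNP-like and auxiliary factors only Tardbp, named likewise, was called, with a log2 fold change of 0.16 (SE 0.04, adjusted p = 0.0304), and the median of that list was -0.02. With a library left out, Pnn passed in 4 of 6 fits, Dyrk1a in 3, Prpf4b and Srek1 in 2, and Clk1, Clk2, Son and Tardbp in 1, the one without control replicate 3. Leaving out control replicate 2 left 0 of the 8 calls, and 0.375% of all genes tested passed in that fit.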

How the data were processed

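PolyA RNA was sequenced from 6 libraries by a strand-specific protocol. Per the methods, the authors trimmed reads with FASTX-Toolkit, aligned them to Rnor_6.0 with TopHat2, counted uniquely mapped reads per gene and deposited raw counts. The submitters' processing notes name a human build instead, though the gene IDs are those of rat, and labels and methods name different library kits. How reads were assigned to genes (tool, strand, annotation) was not stated there, and values of genes that overlap or have near-identical copies are uncertain. Counts were tested with edgeR 4.0.16 in R 4.3.3 (quasi-likelihood, TMM, filterByExpr with minimum count 10 and total 15, Benjamini-Hochberg), and tested on simulated data. SEs are the log2 fold change divided by the root of F. The alternatives tried were RLE scaling, upper-quartile scaling, no filter, at least 1 CPM in 3 libraries, DESeq2 1.42.0, limma-voom (limma 3.58.1), edgeR's exact test, a replicate block and each library left out. Members, lists and tests were chosen with earlier results of these data known. Named genes were all called members whose groups do not overlap, a preset list of well-known members, untested members, and the other splicing genes with the 4 largest rises and falls among calls. Others are said to be named later. Promoters came from RefSeq (GRCr8) by symbol and chromosome, with 1 start kept per symbol and no coordinates of the count table used. Pictures were drawn with matplotlib 3.10.9.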

Additional observations from a re-analysis of the deposited data

How the results depend on the processing

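The 6 called members kept their direction under every alternative and their call under RLE and upper-quartile scaling, both other filters, DESeq2, limma-voom and edgeR's exact test. Genes called higher and lower numbered 562 and 631 as reported, 655 and 427 under upper-quartile scaling (which moves the median log2 fold change of all genes to 0.023), 1079 and 1011 with no filter, 14 and 2 with the replicate block, and 36 to 1395 and 12 to 1465 with each library left out. The deviations of same-numbered libraries from their group means had correlations of -0.078, -0.051 and -0.043. No library correlated best with its own number. Whether libraries of the same number were prepared together is not stated in the labels and was not tested. With the replicate block 0 of the 6 members passed (adjusted p 0.107 to 0.145), and 0 other splicing genes were called higher and 0 lower. Members called higher ranged from 0 to 10 and lower from 0 to 6 with a library left out, the highest counts being without control replicate 3. With no filter 2 members were called lower, and 1 (Celf6) was called with at least 2-fold. Other splicing genes called higher ranged from 0 to 17 and lower from 0 to 4 with a library left out, and 0 were lower under upper-quartile scaling and 2 with no filter. The members' median log2 fold change of 0.050 was 0.070 under upper-quartile scaling and 0.039 to 0.065 with a library left out.

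Members near 0 changed sign. Under upper-quartile scaling Hnrnpa1 was at 0.014, Srsf5 at 0.015 and Srsf7 at 0.0060. With a library left out, log2 fold changes ranged from -0.025 to 0.096 for Elavl1, -0.039 to 0.034 for Hnrnpa1, -0.035 to 0.066 for Luc7l2, -0.0038 to 0.11 for Luc7l3, -0.012 to 0.024 for Ptbp1, -0.060 to 0.0069 for Rbm10, -0.18 to 0.0093 for Rbm3, -0.053 to 0.0090 for Rbm5, -0.033 to 0.024 for Srsf5 and -0.022 to 0.0024 for Srsf7. The cause was not tested. With 3 libraries a group, changes within the intervals given are not resolved.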

Other observations

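Hnrnpd, an AU-rich element binder, stands in the table under its older symbol Hnrpd (ENSRNOG00000002292), outside the rule for members, and had a log2 fold change of 0.01 (SE 0.04, edgeR adjusted p = 0.913). Among tested members, the least precise estimate was that of Rbm20, a regulator of titin splicing in the heart, with 22, 19 and 11 counts in the controls and 17, 17 and 19 in PCBP1-OE (log2 fold change 0.05, SE 0.35).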
